A study of Homo sapiens with 6 samples.

Results

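The ferroptosis sensitivity genes examined here are 10 genes that act on the peroxidation of membrane lipids: *GPX4*, *AIFM2*, *GCH1* and *DHODH* in lipid peroxide defence, *ACSL4*, *LPCAT3* and *ACSL3* in the activation and placing of fatty acids, and *TFRC*, *NCOA4* and *SLC40A1* in iron handling. They were chosen by gene name and make up 10 of the 58870 genes in the count table. All 10 names were found, each in a single row, and 9 had enough reads for an adjusted p. Transcripts were measured by RNA sequencing in WM164, an established human melanoma cell line, with 3 libraries overexpressing green fluorescent protein (GFP) and 3 overexpressing T-MGM. T-MGM is a tethered dimer in which the transcription factors MITF and MAFG are fused through a flexible linker. MITF is the lineage factor of melanocytes, and MAFG is a small MAF protein that partners other basic leucine zipper factors. According to the methods, such constructs were delivered to melanoma cells by lentivirus under the constitutive EF1α promoter and selected with blasticidin, so each group is a selected transduced culture of 1 cell line. The medium was RPMI in every case, with fetal bovine serum at 5% and antibiotics. Nothing in the labels says that libraries of a group came from separate cultures, so p-values measure the spread between these libraries, which may be technical.

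Ferroptosis is an iron-dependent form of cell death in which polyunsaturated phospholipids in membranes are oxidised faster than the peroxides can be reduced. ACSL4 and LPCAT3 load polyunsaturated fatty acids into phospholipids, labile iron drives their oxidation, and GPX4 reduces the resulting lipid hydroperoxides with glutathione, while AIFM2, GCH1 and DHODH serve glutathione-independent antioxidant systems. Melanoma cells in dedifferentiated states are known for their sensitivity to ferroptosis inducers.

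The GFP libraries held 35057239 to 38738065 counts and the libraries labelled T-MGM 44577774 to 59250663, so values below are normalized counts (counts divided by DESeq2 median-of-ratios size factors) unless stated. The RNA of *MAFG*, a gene of the construct, was not higher in the libraries labelled T-MGM in any fit. *MAFG* had 2458 ± 70.3 normalized counts with GFP and 2358 ± 34.9 with T-MGM (SD, n = 3; log2 fold change -0.06, DESeq2 adjusted p = 0.236). It passed as lower with total counts as scaling (-0.11, adjusted p = 0.0107), with a correction for GC content and length (-0.16, adjusted p = 1.76e-04) and on the TPM scale (-0.20, limma adjusted p = 0.0222). *MITF* had a log2 fold change of 0.08 (adjusted p = 4.8e-07), and of 0.19 with the GC and length correction (adjusted p = 1.75e-35). It did not pass with total counts (0.03, adjusted p = 0.156). On the TPM scale it was at -0.06 (limma adjusted p = 0.1), where the median gene was at -0.13. GFP and T-MGM therefore stand for the labels in every direction given here. *AXL*, the receptor tyrosine kinase that the study uses as a marker of dedifferentiation, rose from 236 ± 13.4 to 1126 ± 80.4. Of all genes tested, 38.4% passed an adjusted p of 0.05, 19.2% higher and 19.2% lower. All 7 melanocytic markers, among them the construct gene *MITF*, were read, and all passed the test, 3 higher and 4 lower. The sizes were unequal: their log2 fold changes ran from -2.49 to 0.11, with a median of -0.21, and 1 changed by more than 2-fold. Of the markers of other cell types, *PTPRC*, *CD3E*, *KRT5*, *KRT14*, *COL3A1* and *CDH5* were at or near 0, but others were read. Past the test were 2 fibroblast markers, higher at log2 fold changes of 0.77 and 1.23, and 1 leukocyte marker, lower at -1.32. No keratinocyte or endothelial marker passed. The summed level of 4 fibroblast markers was 322 to 351 normalized counts with GFP and 566 to 616 with T-MGM, led by *LUM*. That of 3 leukocyte markers was 62.8 to 88.7 and 21.5 to 37.4, led by *LYZ*, while the summed ranges of the keratinocyte markers, 843 to 927 and 864 to 1019, overlapped and those of the endothelial markers, 20.4 to 34.6 and 34.7 to 48.8, lay next to each other. The part of any such difference in the results was not tested.

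Because MITF binds E-box and M-box elements and small MAF proteins bind antioxidant response elements, the reference promoters of the members were read for these letters. In the paper, sites shared by MAFG and MITF were enriched mostly for the AP-1 motif, which was not searched here, and weakly for the E-box. RefSeq (GRCh38.p14) windows of 250 bases before to 50 after a transcription start were at hand for 9 of the 10 genes, 12 windows in all. The search, on both strands, used CACGTG (E-box), TCATGTG (M-box), TGACNNNGC (core of the antioxidant response element) and TGCTGA (MAF core, which can overlap the former). Windows holding these letters made up 7.26%, 2.92%, 13.3% and 17.3% of all 35116 windows of that length, respectively. *DHODH* held an E-box 159 bases before its start. *AIFM2* held an antioxidant response core, on the opposite strand, and an overlapping MAF core 22 and 23 bases before its start. One of the *NCOA4* windows held an antioxidant response core that begins 23 bases after the start. No M-box was found in these windows. The windows with a match are printed 5′ to 3′ on the gene strand, with the matched letters in capitals, together with that of *ACSL3*, the member with the largest change, which held no match. A match is a description of the letters and not a binding site.
AIFM2, chr10:70132776-70133075, minus strand: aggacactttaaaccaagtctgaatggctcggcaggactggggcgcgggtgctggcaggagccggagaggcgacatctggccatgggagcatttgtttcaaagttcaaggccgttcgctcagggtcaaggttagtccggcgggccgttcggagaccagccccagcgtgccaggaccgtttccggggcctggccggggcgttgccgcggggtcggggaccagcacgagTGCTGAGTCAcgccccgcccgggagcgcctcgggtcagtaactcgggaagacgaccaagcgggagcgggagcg
DHODH, chr16:72008494-72008793, plus strand: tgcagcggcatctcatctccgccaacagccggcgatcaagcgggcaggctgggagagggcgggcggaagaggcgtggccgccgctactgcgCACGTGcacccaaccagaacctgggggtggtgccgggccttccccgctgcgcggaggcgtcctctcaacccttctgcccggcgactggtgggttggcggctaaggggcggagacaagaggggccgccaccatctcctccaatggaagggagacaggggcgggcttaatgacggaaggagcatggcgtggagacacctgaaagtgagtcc
NCOA4, chr10:46019950-46020249, minus strand: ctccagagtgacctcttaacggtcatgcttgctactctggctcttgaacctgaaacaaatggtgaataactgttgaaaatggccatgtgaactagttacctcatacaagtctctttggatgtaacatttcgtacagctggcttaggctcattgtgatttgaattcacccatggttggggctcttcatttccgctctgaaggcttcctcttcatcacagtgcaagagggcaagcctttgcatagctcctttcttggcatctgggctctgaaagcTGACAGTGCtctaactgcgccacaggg
ACSL3, chr2:222860786-222861085, plus strand: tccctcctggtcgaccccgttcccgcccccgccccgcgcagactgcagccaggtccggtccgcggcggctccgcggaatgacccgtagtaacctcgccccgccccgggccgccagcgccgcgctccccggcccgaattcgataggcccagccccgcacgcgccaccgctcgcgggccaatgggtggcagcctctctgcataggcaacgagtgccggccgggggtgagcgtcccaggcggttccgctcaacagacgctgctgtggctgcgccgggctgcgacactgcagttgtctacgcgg

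Of the 9 tested members, 5 passed an adjusted p of 0.05 between T-MGM and GFP (DESeq2 Wald test, Benjamini-Hochberg over all 19135 genes tested), 2 higher and 3 lower. *GPX4* and *NCOA4* rose, and *ACSL3*, *ACSL4* and *TFRC* fell. The share of members that passed, 55.6%, stood beside 38.4% of all genes tested, of which 19.2% were higher and 19.2% lower. No test of that difference was made, and the shares here and for the lists below were not matched for depth. Earlier results of these data were known when the members and lists were chosen, so these shares are a description only. The lowest mean among the tested members was 143 normalized counts (*GCH1*), while 12654 genes in the series had a mean of at least 50. On the TPM scale (transcript abundance scaled for length and depth) the split was 1 higher and 4 lower. The median of the members there was -0.17, where the median gene was at -0.13. The split of all genes on that scale is not given here or for the lists below. No member changed by more than 2-fold, a size that 4.63% of all genes tested passed. The same 5 members were those whose normalized counts did not overlap between groups, as was so for 46.8% of all genes tested. The median log2 fold change of the 9 members was -0.03, against -0.0027 over all genes tested.

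**Figure D1:**
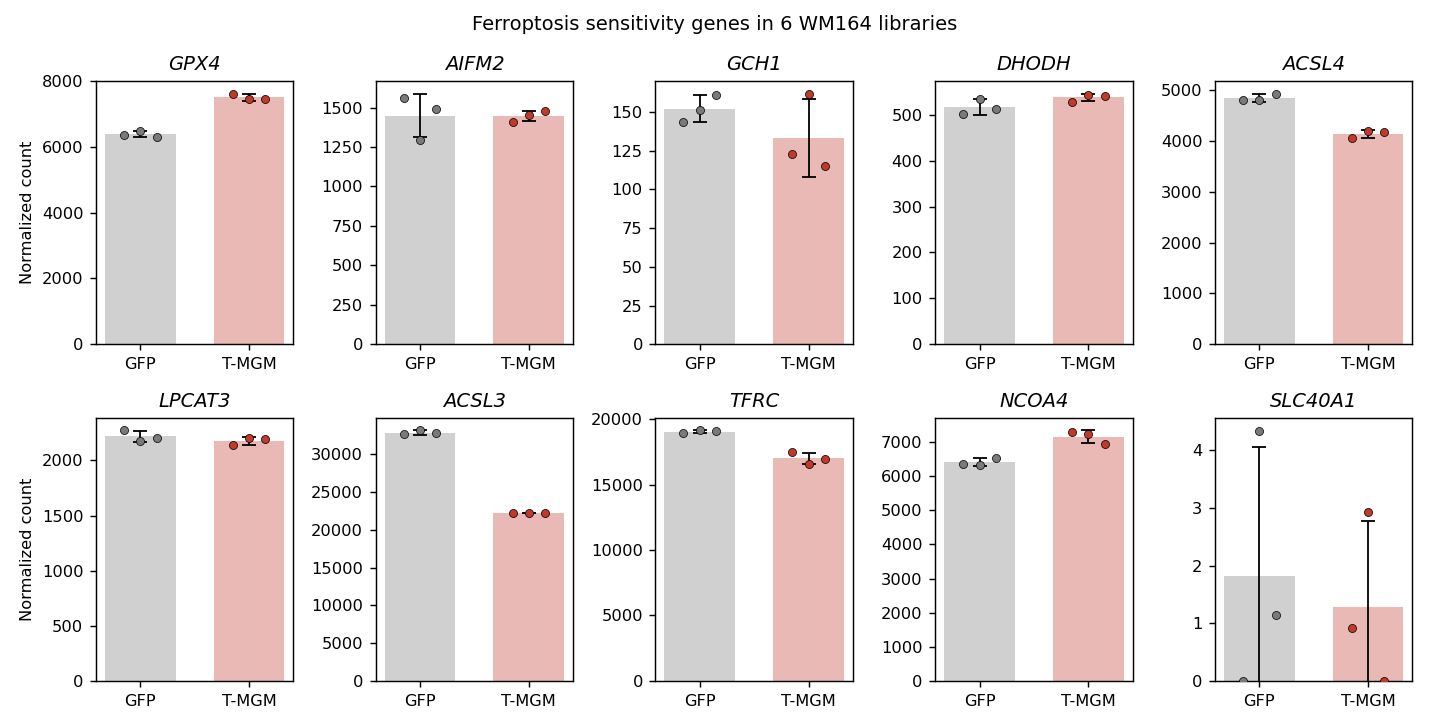
Normalized counts (y axis, from 0, a separate scale for each gene) of the 10 members in the GFP and T-MGM libraries (x axis); points are libraries, bars are means and error bars are SD (n = 3). The T-MGM points lie above all GFP points for *GPX4* and *NCOA4* and below them for *ACSL4*, *ACSL3* and *TFRC*, while *SLC40A1* stayed at no more than 4 raw counts.

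Lipid peroxide defence was led by *GPX4* (ENSG00000167468.16; chromosome 19, 1103982 to 1106791, plus strand, GRCh38), the selenoenzyme that reduces phospholipid hydroperoxides in membranes. It had 6365, 6482 and 6308 normalized counts with GFP and 7624, 7447 and 7445 with T-MGM. Every T-MGM library was above every GFP library. The mean rose from 6385 ± 88.6 to 7505 ± 103 (SD, n = 3), or 0.23 as log2 fold change (SE 0.02, DESeq2 adjusted p = 5.85e-22), which is 17.5% (95% interval of the fold 1.14 to 1.21). Its transcript is rich in G and C (62.3%), in the highest of 10 GC content classes (deciles), whose median log2 fold change was 0.15. Once GC content and transcript length were corrected for, its log2 fold change was 0.06 (adjusted p = 0.0393).

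The other 3 defence genes did not pass the test. *AIFM2* (chromosome 10, 70098223 to 70132934, minus strand), also known as FSP1, reduces coenzyme Q at the plasma membrane, and its promoter holds the overlapping cores printed above. Its normalized counts were 1561, 1294 and 1494 with GFP and 1411, 1451 and 1477 with T-MGM. The T-MGM values lay within the range of the GFP values, and the fold had a 95% interval of 0.922 to 1.08 (adjusted p = 0.991). *GCH1* (chromosome 14, 54842008 to 54902826, minus strand), the first enzyme of tetrahydrobiopterin synthesis, was low, at 144, 152 and 161 with GFP and 123, 162 and 115 with T-MGM. Here a single T-MGM library was as high as the highest GFP library and the other two were below the lowest, and the interval of the fold, 0.688 to 1.11, was the widest among the tested members (adjusted p = 0.423). *DHODH* (chromosome 16, 72008588 to 72027664, plus strand), which reduces coenzyme Q in the mitochondrial inner membrane during pyrimidine synthesis and whose promoter holds the E-box, had 501, 535 and 513 with GFP and 528, 543 and 542 with T-MGM. The groups overlapped and the fold had an interval of 0.930 to 1.17 (adjusted p = 0.653). For *AIFM2* and *DHODH* a change beyond about these bounds was not seen at this depth, whereas the bounds of *GCH1* leave room for a larger one.

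Among the lipid enzymes, both acyl-CoA synthetases fell and the acyltransferase did not pass the test. *ACSL3* (ENSG00000123983.14; chromosome 2, 222860942 to 222944639, plus strand) activates fatty acids, among them the monounsaturated fatty acids that make membranes less prone to peroxidation. It had 32624, 33179 and 32836 normalized counts with GFP and 22260, 22262 and 22278 with T-MGM. The mean fell from 32880 ± 280 to 22267 ± 10.1, a log2 fold change of -0.56 (SE 0.01; 95% interval of the fold 0.665 to 0.690), and DESeq2 returned an adjusted p of 0, below what the computer can hold. This was the largest change among the members, and at -0.40 it remained past the test after the GC and length correction (adjusted p = 1.22e-171). The 81 expressed genes within 10 Mb of it, with a mean of at least 50 normalized counts, had a median log2 fold change of -0.17, and -0.16 after that correction. *ACSL3* lies in the lowest GC content decile, whose median was also -0.17. For the other members that passed, the uncorrected medians of such neighbours were 0.10 (*GPX4*), -0.05 (*ACSL4*), -0.08 (*TFRC*) and -0.06 (*NCOA4*). The part of position in these changes was not tested.

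*ACSL4* (ENSG00000068366.19; chromosome X, 109624244 to 109733403, minus strand) activates arachidonic and other polyunsaturated fatty acids and supplies the substrates of lipid peroxidation. Its normalized counts were 4797, 4805 and 4932 with GFP and 4057, 4190 and 4167 with T-MGM. The groups did not overlap, and the mean fell from 4845 ± 75.9 to 4138 ± 71.3, a log2 fold change of -0.23 (SE 0.03, adjusted p = 1.56e-14). This call was lost in the GC and length correction, where the log2 fold change was -0.05 (adjusted p = 0.162); its transcript has 36.4% GC. *KCNE5* lies on the same strand within its bounds. *LPCAT3* (chromosome 12, 6976185 to 7018477, minus strand), which places polyunsaturated acyl chains into lysophospholipids, had 2274, 2180 and 2202 with GFP and 2137, 2202 and 2195 with T-MGM. The groups overlapped, and the fold had an interval of 0.930 to 1.04 (adjusted p = 0.678).

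Since ACSL4 and ACSL3 favour polyunsaturated and monounsaturated chains, their relative counts were compared within libraries, a measure that needs no scaling between libraries. There were 0.147, 0.145 and 0.150 counts of *ACSL4* per count of *ACSL3* with GFP and 0.182, 0.188 and 0.187 with T-MGM. The ratio was higher in all 3 T-MGM libraries, by 0.33 on the log2 scale or 1.26-fold (2-sided exact permutation test p = 0.1, the smallest that 3 against 3 libraries can give). Both genes fell, *ACSL3* by more. Among the lipid peroxide defence genes, *AIFM2* per count of *GPX4* was 0.245, 0.200 and 0.237 with GFP and 0.185, 0.195 and 0.198 with T-MGM. It was lower in all 3 T-MGM libraries, by a log2 difference of -0.23 (exact permutation p = 0.1), though the nearest values, 0.200 and 0.198, were close. The transcripts of *AIFM2* and *GPX4* have 55.4% and 62.3% GC, a difference that the ratio does not correct for. Adjusted over these 2 pairs both p-values were 0.1, so neither could pass. The ratio of *TFRC* to *SLC40A1* was not computed because *SLC40A1* had no count in 2 libraries.

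The iron genes moved in different directions. *TFRC* (ENSG00000072274.13; chromosome 3, 196012511 to 196082153, minus strand), the receptor that takes up transferrin-bound iron, had 18931, 19137 and 19074 normalized counts with GFP and 17466, 16611 and 16940 with T-MGM. All T-MGM libraries were below all GFP libraries, and the mean fell from 19047 ± 105 to 17005 ± 431, a log2 fold change of -0.16 (SE 0.02, adjusted p = 2.87e-18). The GC and length correction brought it to -0.05 (adjusted p = 0.0118). *NCOA4* (ENSG00000266412.5; chromosome 10, 46005088 to 46030623, minus strand), the receptor that carries ferritin to the lysosome and so releases stored iron, had 6359, 6338 and 6541 with GFP and 7283, 7247 and 6950 with T-MGM. The groups did not overlap, and the mean rose from 6413 ± 112 to 7160 ± 183, a log2 fold change of 0.16 (SE 0.03, adjusted p = 3.3e-09). Unlike the other 4 members that passed, it moved against the median of genes of like GC content, which was -0.09, and it was 0.24 after the correction (adjusted p = 7.51e-21). *SLC40A1* (chromosome 2, 189560590 to 189583758, minus strand) encodes ferroportin, the iron exporter. It had 0, 4 and 1 raw counts with GFP and 1, 3 and 0 with T-MGM. These lie at or next to the floor of 3 counts, so no fold is given and its transcript was close to undetected in either group at this depth.

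**Figure D2:**
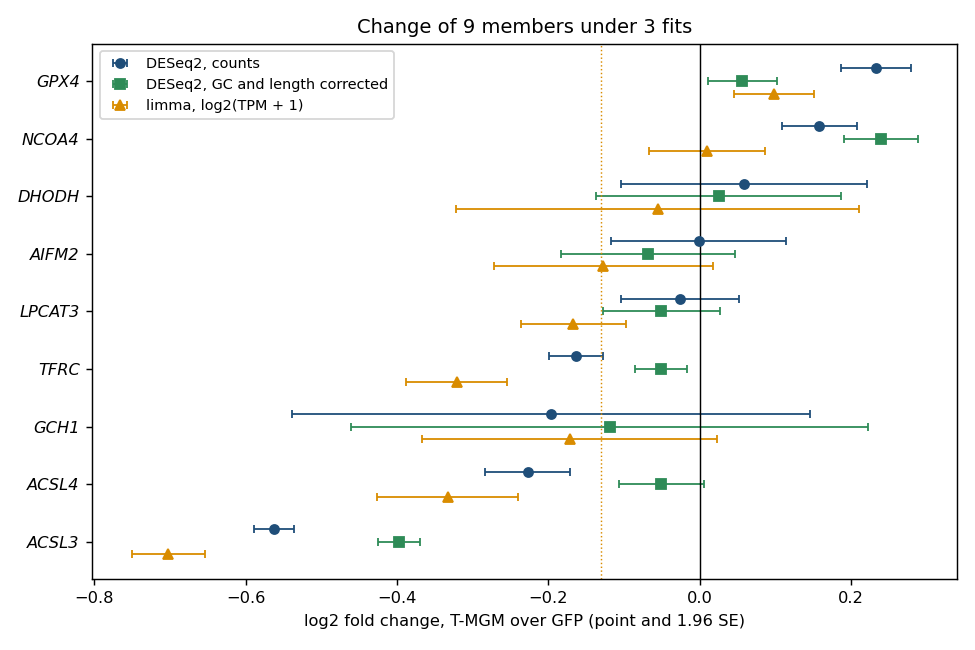
Log2 fold change of T-MGM over GFP (x axis) with its 95% interval for the 9 tested members (y axis) in the count fit (circles), with the GC and length correction (squares) and on log2(TPM + 1) (triangles); the dotted line is the median gene on the TPM scale, -0.13. *ACSL3* lies to the left of 0 in each fit, *ACSL4* and *TFRC* move toward 0 with the correction, and *NCOA4* moves away from it.

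On the deposited TPM values (transcript abundances scaled for length, which allow levels to be compared between genes) the order of the members in GFP was *GPX4* (207 ± 3.10 TPM) and *ACSL3* (203 ± 3.97), then *TFRC* (87.7), *NCOA4* (37.3), *LPCAT3* (22.7), *ACSL4* (20.7), *AIFM2* (9.58), *DHODH* (3.16), *GCH1* (1.09) and *SLC40A1* (0.013). *GPX4* and *ACSL3* overlapped in GFP and could not be ordered, and no other neighbours overlapped. The order was the same in T-MGM, but there *GPX4* (222 ± 5.38 TPM) and *ACSL3* (124 ± 0.777) no longer overlapped.

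**Figure D3:**
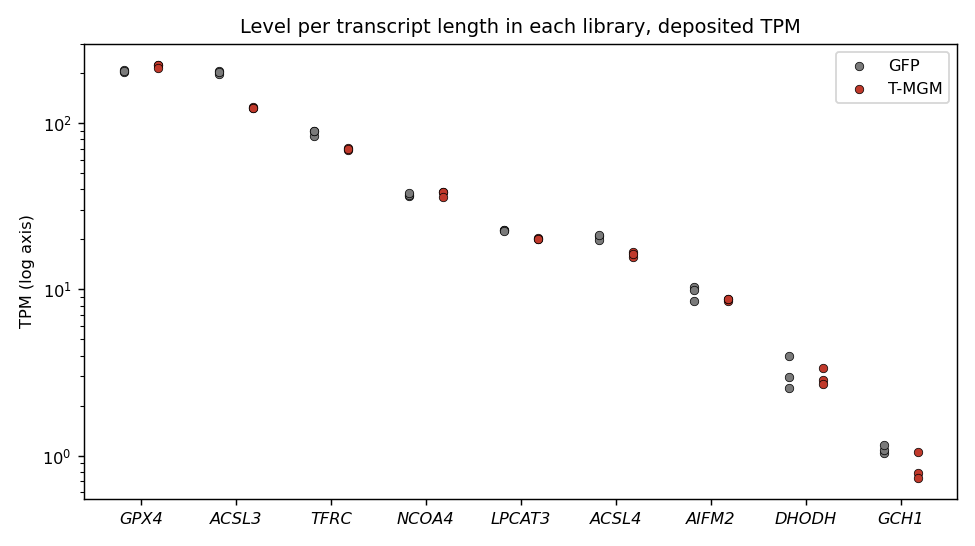
Deposited TPM (y axis, log scale) of 9 members in each library (points), with GFP and T-MGM side by side; *SLC40A1*, listed at 0 in some libraries, is not drawn. *GPX4* and *ACSL3* share the top level in GFP, near 207 and 203 TPM, and separate in T-MGM to 222 and 124 TPM.

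The TPM values placed the median gene at a log2 change of -0.13, and the transcript with the most TPM, *RN7SL1*, took 13.4% to 13.8% of all TPM in GFP against 15.8% to 16.1% in T-MGM. Changes on that scale are therefore given relative to the median gene. On this footing *GPX4* stood 0.23 above it and *NCOA4* 0.14 above it, and *ACSL3*, *ACSL4* and *TFRC* stood 0.57, 0.20 and 0.19 below it. Without that step *NCOA4* was at 0.0098 on the log2(TPM + 1) scale and did not pass (limma adjusted p = 0.862), and *LPCAT3* passed at -0.17 (adjusted p = 0.0088). Values, passes and splits on the TPM scale in the other paragraphs are also given without that step.

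Across 12613 expressed genes with a transcript GC content, log2 fold change and GC content had a Spearman correlation of 0.378, a description over genes that share the same 6 libraries. The median log2 fold change went from -0.17 in the lowest GC content decile to 0.15 in the highest. *GPX4*, *ACSL4*, *ACSL3* and *TFRC* moved in the direction of their own decile, and *NCOA4* did not. The part of GC content in the changes of these genes was not tested beyond the corrected values given.

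**Figure D4:**
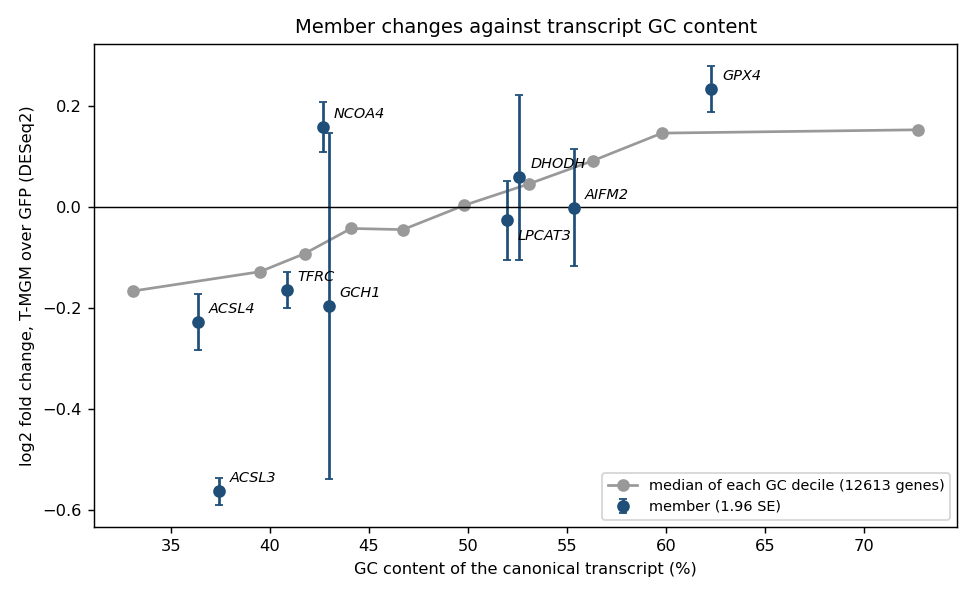
Log2 fold change of T-MGM over GFP (y axis) against the GC content of the canonical transcript in percent (x axis) for 9 members (points with 95% interval); the grey line joins the medians of the deciles of 12613 genes, drawn at the middle of each decile. *ACSL3* lies far below the grey line and *NCOA4* above it, and *DHODH*, at 0.06, lies close to the median of its decile, 0.05.

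Genes around these 10 were examined through 3 lists of related genes. Of 36 further genes of lipid peroxide defence (cystine uptake, glutathione, thioredoxin, selenoprotein, coenzyme Q, biopterin and pyrimidine genes), 35 were tested and 18 passed, 5 higher and 13 lower. That is 51.4% beside 38.4% of all genes, with a median log2 fold change of -0.08 against -0.0027 over all genes tested. *SLC7A11*, the cystine importer that feeds glutathione synthesis, had 3455, 3573 and 3591 normalized counts with GFP and 2034, 2144 and 2166 with T-MGM. Its log2 fold change was -0.74 (SE 0.04; adjusted p = 4.21e-88). Its heavy-chain partner *SLC3A2* rose by 0.36, from 4007 ± 115 to 5148 ± 54.2 (adjusted p = 3.77e-34). The quinone reductase *NQO1* fell from 22274 ± 307 to 15845 ± 338 (log2 fold change -0.49, adjusted p = 1.16e-165), and the thioredoxin reductase *TXNRD1* fell from 9526 ± 207 to 6737 ± 41.0 (-0.50, adjusted p = 3.14e-108). On the TPM scale the split of this list was 1 higher and 15 lower. Its median there was -0.14, where the median gene was at -0.13.

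Of 28 further lipid enzymes and factors, 22 were tested and 14 passed, 4 higher and 10 lower, which is 63.6% beside 38.4%, with a median of -0.09. *SCD*, which makes monounsaturated fatty acids, fell from 20311 ± 307 to 16763 ± 150 (log2 fold change -0.28, adjusted p = 1.07e-61). *AGPS*, a peroxisomal enzyme of ether lipid synthesis, fell by 0.31 (adjusted p = 5.74e-29), and *LPCAT2*, an acyltransferase related in function to LPCAT3, fell by 0.43 (adjusted p = 2.78e-27). The GC and length correction brought *AGPS* to -0.13 (adjusted p = 5.61e-06) and *LPCAT2* to -0.26 (adjusted p = 2.95e-10), and *LPCAT2* did not pass on the TPM scale without the filter (limma adjusted p = 0.0706). *SAT1*, which acetylates spermidine and spermine, rose from 2674 ± 131 to 3599 ± 60.0 (0.43, adjusted p = 3.8e-30). The 6 listed lipoxygenase genes were read at a mean of 2.35 normalized counts or less and had no adjusted p. With the GC and length correction the median of this list was 0.0003. On the TPM scale its split was 1 higher and 12 lower, with a median of -0.23 where the median gene was at -0.13.

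Of 30 further iron genes, 25 were tested and 12 passed, 7 higher and 5 lower, which is 48% beside 38.4%, with a median of 0.03. *PCBP1* and *PCBP2*, chaperones that deliver iron to ferritin, rose by 0.16 each (adjusted p = 3.25e-23 and 5.84e-21). *MELTF*, a transferrin-family protein of melanoma cells, rose by 0.27 (adjusted p = 5.19e-21), and *SLC25A37*, a mitochondrial iron importer, rose by 0.31 (adjusted p = 8.51e-12). On the TPM scale the median gene was at -0.13, so values near 0 there lie above it. On that scale *PCBP1* (0.01, limma adjusted p = 0.725), *PCBP2* (0.04, adjusted p = 0.253) and *MELTF* (0.04, adjusted p = 0.372) did not pass. Nor did *SLC25A37* without the TPM filter (0.21, adjusted p = 0.0637). With the GC and length correction *PCBP1* was 0.08 (adjusted p = 1.4e-06) and *MELTF*, with 67.5% GC, was 0.10 (adjusted p = 8.77e-05). Of the ferritin chains that *NCOA4* binds or delivers, the heavy chain *FTH1* rose by 0.05, from 52928 ± 116 to 54680 ± 1063 (adjusted p = 0.00297). On the TPM scale *FTH1* passed as lower (-0.15, limma adjusted p = 0.00133), near the median gene of that scale. With total counts as scaling it was -0.0061 (adjusted p = 0.792), and with the GC and length correction it did not pass (adjusted p = 0.355). The light chain *FTL* fell by 0.08, from 23063 ± 268 to 21866 ± 575 (adjusted p = 1.08e-04), and was at -0.20 with that correction (adjusted p = 3.76e-33). On the TPM scale this list split into 3 higher and 8 lower, with a median of -0.145. No gene of the 3 lists changed by more than 2-fold past the test.

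**Figure D5:**
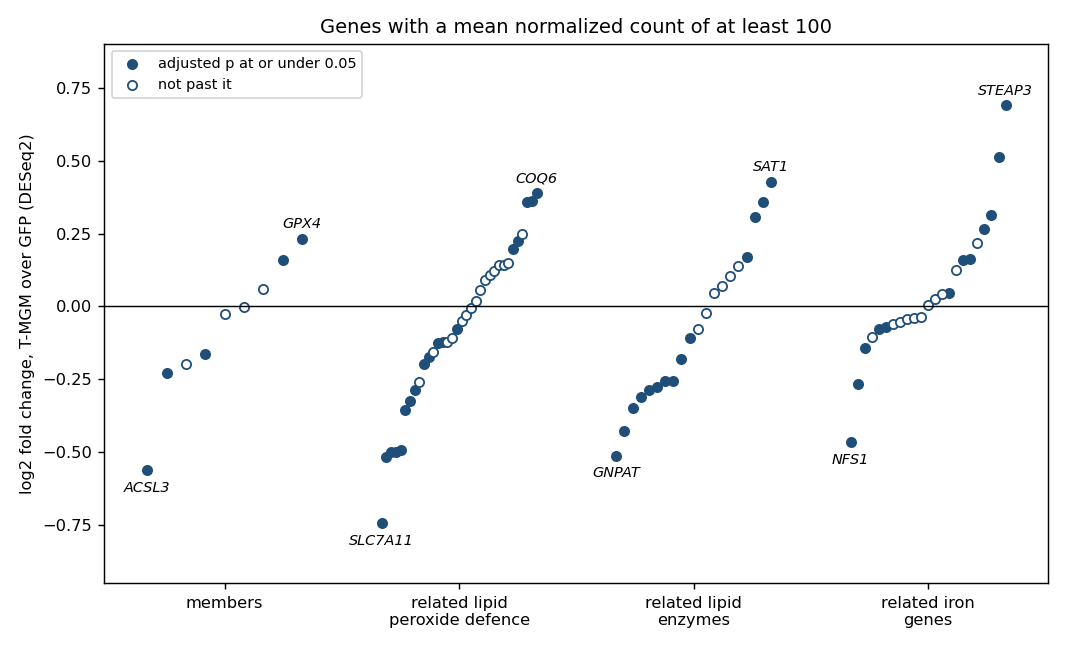
Log2 fold change of T-MGM over GFP (y axis) for the members and the 3 lists of related genes (x axis, each ordered by value), limited to those with a mean of 100 normalized counts or more; filled points passed an adjusted p of 0.05. The lowest and highest gene of each group is named. *SLC7A11* is the lowest at -0.74 and *STEAP3* the highest at 0.69, and the members lie between -0.56 and 0.23.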

How the data were processed

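RNA was measured in 6 WM164 libraries, 3 labelled GFP and 3 labelled T-MGM, with groups and replicate numbers taken from the sample titles. Per the labels and methods, the authors trimmed reads with cutadapt 1.8.1 and aligned them to GRCh38 with STAR 2.7.7a. The deposited counts are unnormalized whole numbers of reads per gene from featureCounts, and the deposited TPM values, made by the authors with RSEM 1.3.0, are scaled for transcript length and depth and rounded to 2 decimals. The annotation release was not given in the sources used here. The labels name a library kit without strand and the methods a kit with strand, so reads of overlapping genes cannot be assigned with certainty; *AIFM2*, *GCH1*, *ACSL4*, *LPCAT3*, *ACSL3*, *TFRC* and *NCOA4* overlap annotated genes on the opposite strand, and *ACSL4* and *GCH1* also on the same strand.

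Counts were fitted over the whole table with DESeq2 1.42.0 in R 4.3.3 as the methods name it, using a Wald test (2-sided) of the group alone, scaling by median-of-ratios, independent filtering at 0.05 and Benjamini-Hochberg adjustment. Passing means an adjusted p at or under 0.05, and genes without an adjusted p were left without one. All folds divide T-MGM by GFP. The floor was 3 counts (0.0506 to 0.0856 CPM), and floors cover counting error only, because PCR copies were not marked by molecular identifiers. Alternatives were edgeR 4.0.16 (quasi-likelihood, TMM), TMM or total-count scaling, a filter of 10 counts in 3 or more libraries, the fit without independent filtering, a block for the replicate number, leaving out each library, lowess offsets for GC content and transcript length (span 0.3), and limma 3.58.1 with a trend on log2 of TPM plus 1 or 0.1 with a minimum of 0.5 TPM in 3 libraries, or without it. Positions, GC content and overlaps are from GENCODE 44 (GRCh38), which held 99.3% of the gene identifiers.

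The members and lists were chosen with earlier results of these data known. Beside the members, the text names the 4 genes of each list with the largest absolute Wald statistic among those that passed at a mean of 100 normalized counts or more, *SLC7A11*, *FTH1* and *FTL*, the construct genes and *AXL*. *STEAP3*, *SLC39A8*, *NFS1*, *ACO1*, *IREB2*, *KCNE5*, *RN7SL1*, the lipoxygenase genes and the markers were named after their values were seen or for the check of the libraries. The chi-square of counts per degree of freedom was 2.81 to 5.04 between libraries of a group, so no library was counted as a duplicate. The scripts were tested on 1 set of simulated data, where unchanged genes made up 13.8% of the DESeq2 calls, a larger share than the nominal threshold. Of 32338 genes there, only 100 were changed by 0.4 and 100 by 1.5 on the log2 scale. That share depends on how many genes change, so it does not carry over to these data, where 7350 of 19135 tested genes passed.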

Additional observations from a re-analysis of the deposited data

How the results depend on the processing

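The 5 members that passed were the same in each of the count fits with edgeR, with TMM or total-count scaling, with the count filter, without independent filtering and in the 6 fits without a library; *ACSL4* was lost with the GC and length correction (4 passed). On the TPM scale 5, 5 and 4 passed: *NCOA4* was lost, *LPCAT3* passed as lower, and without the filter *GPX4* was lost (adjusted p = 0.0553). Without the TPM filter the count of lipid enzymes past the test was 8 and that of iron genes 6, and the cause was not tested. The share of all genes that passed is given for the main fit only. Counts under the alternatives therefore cannot be set against the share of their own fit. With values near 0, *AIFM2* changed sign to 0.0015 with edgeR, 0.0095 with TMM scaling and 0.000327 with the replicate block, with a range of -0.0778 to 0.0544 over the fits without a library. On log2(TPM + 1), log2(TPM + 0.1) and log2(TPM + 1) without the filter, *DHODH* stood at -0.0555, -0.0678 and -0.0555, *FTH1* at -0.147 in each and *MITF* at -0.0620, -0.0624 and -0.0620, where the median gene stood at -0.13 to -0.15; *FTH1* was -0.0061 with total counts. Of the single-gene values under alternatives, 127 of the members' kept their direction and side of the threshold, 5 lost and 3 gained a pass, and 9 changed sign; for the other named genes these numbers were 247, 13, 5 (each *MAFG*, as lower) and 7.

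Replicate numbers did not pair the libraries: deviations from the group means of same-numbered libraries correlated at -0.0067, -0.058 and 0.029. With the replicate block 5 members passed, and 15, 14 and 11 genes of the defence, lipid and iron lists. The share of all genes that passed in that fit is not given here. The depth limits *SLC40A1* and the lipoxygenase genes, which have too few counts for a comparison, and gives *GCH1* the widest interval among the tested members.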

Other observations

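The iron genes given here were chosen after their values were seen. *STEAP3*, a ferrireductase of the transferrin cycle, had 279, 291 and 272 normalized counts in GFP and 421, 435 and 500 in T-MGM, a log2 fold change of 0.69 (DESeq2 adjusted p = 1.2e-09). *SLC39A8*, a metal importer, rose by 0.51 (adjusted p = 3.59e-08), and *NFS1*, the cysteine desulfurase of iron-sulfur cluster assembly, fell by 0.47 (adjusted p = 5.52e-09). *ACO1* and *IREB2* encode the iron regulatory proteins that bind *TFRC* and ferritin transcripts. *ACO1* fell by 0.27 (adjusted p = 1.64e-07). *IREB2* was at -0.14 (adjusted p = 5.06e-05), but with the GC and length correction it was at 0.01 (adjusted p = 0.808).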
